A study of Oryza sativa with 4 samples.

Results

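The long arms of rice chromosomes 8 and 9 carry one of the blocks left by an ancient genome duplication that the cereal grasses share, so the arms descend from one ancestral segment. The H4K5ac regions of these arms were taken as all peaks with their midpoint on chromosome 8 from 14.9 to 26.4 Mb or on chromosome 9 from 4.8 to 20.9 Mb. This gave 3720 of the 55030 peaks in both lists together. The well-watered list held 1958 of its 28883 peaks there, 815 on the chromosome 8 arm and 1143 on the chromosome 9 arm. The drought-stressed list held 1762 of 26147, 729 and 1033 on these arms. The lists carry no genes or gene pairs, so the arms were compared as stretches of chromosome, and their duplication was taken as background and not checked.

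H4K5ac is acetylation of the fifth residue, a lysine, in the tail of histone H4. It is laid down by histone acetyltransferases, removed by deacetylases, and found mostly at genes that are being transcribed. In cereal chromosomes genes thicken from the centromere towards the ends of the arms, while transposons fill the stretches near the centromere. After a genome duplication most duplicated genes are lost from one copy or the other, so such arms differ in length and in gene content while keeping gene order in part.

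The marks were mapped by chromatin immunoprecipitation and sequencing in leaves of the rice cultivar Hanyou73, a hybrid, at the grain filling stage. One group of plants was well-watered and the other drought-stressed, with 2 libraries each, and all 4 libraries used an antibody against H4K5ac. Each condition has a single peak list that stands for both of its libraries, so there is no value per replicate, no spread between replicates and no test between the conditions. The sources used here do not say whether the libraries of a condition came from separate plants, or how the drought was imposed. Depth is unknown because the lists hold no read counts. Peak number and width can both move with depth, so a difference between the lists describes the lists. Intervals are given at 95%. They allow for counting error alone and take each peak as independent of its neighbours. Without a genome of the build used for the lists, positions are the lists' own, written from 1, and no gene or sequence is given.

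Over their full length the arms had nearly the same density of H4K5ac regions. The chromosome 8 arm, 11.5 Mb long, held 70.9 well-watered peaks per Mb (66.1 to 75.9). The chromosome 9 arm, 16.1 Mb long, held 71.0 per Mb (66.9 to 75.2). Their ratio was 0.998, with an interval of 0.911 to 1.09. Under drought the densities were 63.4 and 64.2 per Mb, with a ratio of 0.988 (0.897 to 1.09). Within these limits both arms lay below the other sequence of chromosomes 1 to 12, which held 77.7 peaks per Mb in the well-watered and 70.3 in the drought-stressed list. The ratio to that sequence in the well-watered list was 0.912 (0.850 to 0.978) for the chromosome 8 arm and 0.914 (0.861 to 0.970) for the chromosome 9 arm. The limits leave the outermost 2.04 and 2.03 Mb to the other sequence. Extended to the last peak, the arms held 77.0 (72.4 to 81.8) and 75.2 (71.3 to 79.3) well-watered peaks per Mb, and these intervals include 77.7. The rest of chromosomes 8 and 9 held 69.4 and 68.8 per Mb, no more than the arms. Among the 10 chromosomes that hold neither arm, the well-watered density ran from 57.2 on chromosome 11 to 97.1 on chromosome 3, so both arms sat well inside the range of whole chromosomes.

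**Figure D1:**
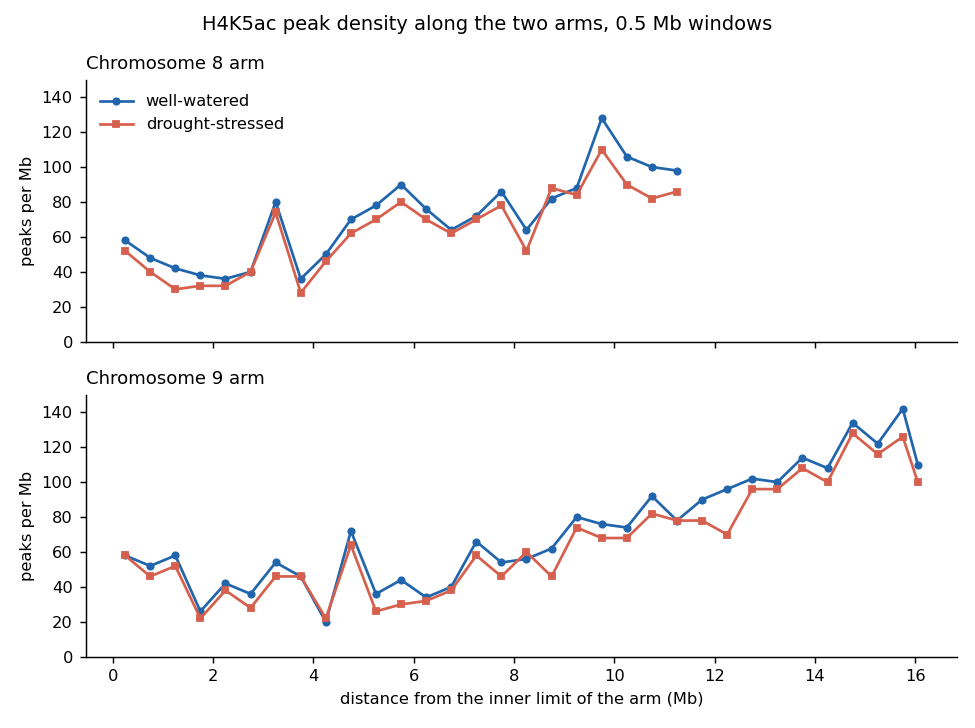
Peaks per Mb (vertical axis) in 0.5 Mb windows against the distance from the inner limit of each arm in Mb (horizontal axis), for the well-watered list (circles) and the drought-stressed list (squares). The last window of the chromosome 9 arm is shorter. Density rose outward on both arms, from 48.5 to 95.7 well-watered peaks per Mb between the inner and the outer of 3 equal parts of the chromosome 8 arm and from 45.8 to 106.6 on chromosome 9.

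On both arms the acetylated regions thickened outward, as the plot of density along the arms shows. Each arm was divided into 3 equal parts, called inner, middle and outer. From the inner to the outer part the chromosome 8 arm held 48.5, 68.3 and 95.7 well-watered peaks per Mb. The chromosome 9 arm held 45.8, 60.6 and 106.6. The outer part was 1.97 times as dense as the inner on chromosome 8 (1.65 to 2.37) and 2.33 times on chromosome 9 (1.999 to 2.71). In the drought-stressed list the ratios were 2.02 (1.67 to 2.45) and 2.38 (2.03 to 2.80). The gradient therefore appeared in both lists, and the intervals of the arms overlapped.

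As counted, the gradients differed in shape when each arm was divided by its own length. The segments have no intervals, so this difference is a description only. Over 10 equal segments of the chromosome 8 arm, the density stood at 35.7 to 55.7 well-watered peaks per Mb in the first 4, stepped up to 78.3 in the fifth, and stayed at 74.8 to 78.3 until the eighth. It was 107.8 and 101.7 in the last pair of segments. On chromosome 9 it stayed between 34.8 and 57.8 over the first 5 segments and then rose at each segment, through 67.7, 76.4, 95.7 and 105.0 to 131.7. Density first fell on both arms. From the first to the second segment it went from 55.7 to 35.7 on chromosome 8 and from 57.8 to 34.8 on chromosome 9. Across the 10 segments, the well-watered profiles of the arms had a Pearson correlation of 0.89 and a Spearman correlation of 0.89. This describes a shared course, an early dip and then an outward rise, and does not pair any stretch of one arm with a stretch of the other. Within an arm the profiles of both lists nearly coincided, with Pearson correlations of 0.99 over the 11 complete 1 Mb windows of chromosome 8 and 0.99 over the 16 of chromosome 9.

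When the arms were aligned at their outer limits, which both lie 2.04 or 2.03 Mb before the last peak of the chromosome, chromosome 9 was the denser. Its outermost 11.5 Mb held 941 well-watered peaks, 81.8 per Mb, against 815 on the chromosome 8 arm, a ratio of 0.866 for chromosome 8 over chromosome 9 (0.788 to 0.952). In the drought-stressed list the ratio was 0.859 (0.777 to 0.949). Counted inward from the outer limit in steps of 1 Mb, chromosome 9 held more well-watered peaks in 9 of 11 steps. Across these steps the counts of the arms had a Pearson correlation of 0.91 and a Spearman correlation of 0.92. The first 4 steps held 135, 121, 105 and 101 peaks on chromosome 9 and 99, 117, 85 and 75 on chromosome 8. The near-equal density of the whole arms thus depended on the longer inner stretch of the chromosome 9 arm, where peaks were sparse.

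The limits were set by position, and peaks continued across each of them. At the inner limit of chromosome 8 the 0.5 Mb just inside held 29 well-watered peaks with a median width of 705 bp, and the 0.5 Mb just outside held 20 with a median of 382.5 bp. At the inner limit of chromosome 9 the values were 29 peaks and 438 bp inside, and 24 peaks and 505 bp outside. At the outer limits they were 49 peaks and 637 bp inside against 41 and 546 bp outside on chromosome 8, and 68 peaks and 568.5 bp against 63 and 582 bp on chromosome 9.

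The fullest 0.5 Mb window of the chromosome 8 arm lay from 24.4 to 24.9 Mb in both lists, with 64 well-watered and 55 drought-stressed peaks. The emptiest held 18 well-watered peaks, from 16.9 to 17.4 Mb and again from 18.4 to 18.9 Mb, where the drought-stressed list had its lowest count of 14. On chromosome 9 the fullest window was from 20.3 to 20.8 Mb in the well-watered list, with 71 peaks, and from 19.3 to 19.8 Mb in the drought-stressed list, with 64. The emptiest well-watered window there was from 8.8 to 9.3 Mb, with 10 peaks. It held 11 drought-stressed peaks, the lowest count of that list, shared with 6.3 to 6.8 Mb.

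Neighbouring regions were spaced alike on both arms. The median gap between well-watered peaks was 7118.5 bp on chromosome 8 (6515 to 7962 bp) and 6907 bp on chromosome 9 (6453 to 7506 bp). The drought-stressed list gave 8238.5 bp (7510 to 9157 bp) and 7711.5 bp (7122 to 8405 bp). Elsewhere on chromosomes 1 to 12 the medians were 6678 and 7400 bp. The gap shrank outward, from a median of 10715 bp in the inner part to 5727 bp in the outer part of the chromosome 8 arm, and from 8789 to 5673 bp on chromosome 9 (well-watered list).

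Close neighbours were as common on these arms as elsewhere. Gaps under 1 kb made up 11.1% of well-watered gaps on chromosome 8, 10.7% on chromosome 9 and 10.4% elsewhere. Of the well-watered peaks, 28.1% on the chromosome 8 arm and 30.6% on the chromosome 9 arm had a neighbour within 2 kb, against 29.1% elsewhere. No chain of peaks spaced by at most 2 kb held more than 4 peaks on either arm in either list.

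Long peak-free stretches took up much of both arms. Gaps over 50 kb numbered 41 on chromosome 8 and 52 on chromosome 9 in the well-watered list, and covered 27.3% and 30.1% of the arms, against 23.5% of the sequence elsewhere. They were concentrated inward. They covered 39.2% of the inner part but 11.8% of the outer part on chromosome 8, and 47.9% and 4.98% on chromosome 9. Of the gaps over 100 kb, 6 lay on chromosome 8 and 12 on chromosome 9, and only 1 of these, on chromosome 8, began in an outer part. In the drought-stressed list the gaps over 100 kb numbered 7 and 18.

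The longest gaps were found in both lists at almost the same ends. On chromosome 9 the longest ran from 6441927 to 6745874 in the well-watered list (303948 bp) and from 6441915 to 6745890 in the drought-stressed list. On chromosome 8 it ran from 16111310 to 16308586 (197277 bp) and from 16111304 to 16309121. The gap ranked second differed between the lists. On chromosome 8 it was 125417 bp long in the well-watered list, from 18766122 to 18891538, but 190939 bp long in the drought-stressed list, from 16681996 to 16872934. On chromosome 9 it was 290251 bp long, from 8973958 to 9264208, in the well-watered list, and 258854 bp long, from 10981358 to 11240211, in the drought-stressed list. In the middle part of the chromosome 8 arm the longest gap was 125417 bp (well-watered) and 125513 bp (drought-stressed). In that of the chromosome 9 arm it was 258845 and 258854 bp. Gaps of those lengths were thus not particular to either list, although their rank was.

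**Figure D2:**
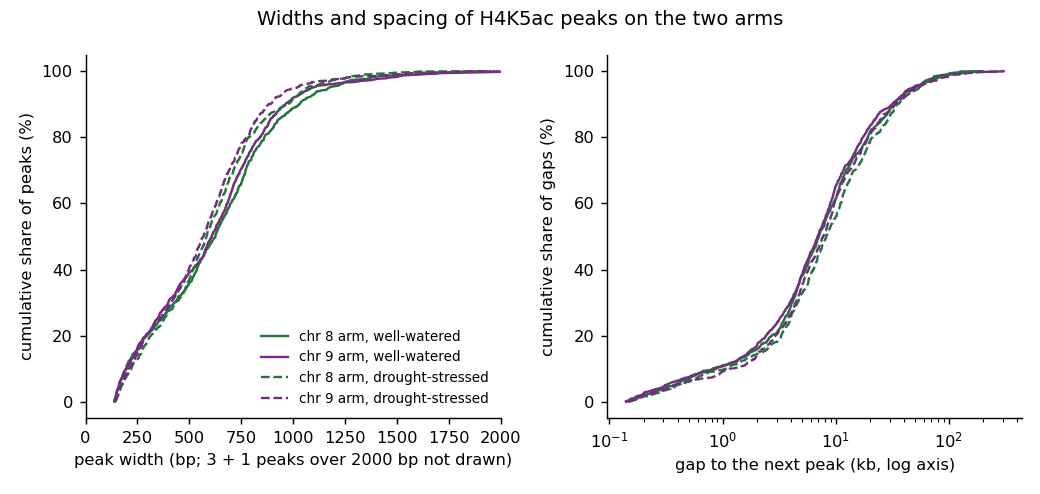
Cumulative share (vertical axes, %) of peaks by width in bp (left) and of gaps between neighbouring peaks in kb on a log axis (right), for the chromosome 8 arm (green) and the chromosome 9 arm (purple) in the well-watered list (solid) and the drought-stressed list (dashed). The curves of the arms nearly coincide, with median widths of 626 and 608 bp in the well-watered list, and the arms part most among the broad peaks. Not drawn are 3 well-watered peaks and 1 drought-stressed peak over 2000 bp.

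The acetylated regions were of like width on both arms, except among the broadest. Median widths in the well-watered list were 626 bp on chromosome 8 (589 to 647 bp) and 608 bp on chromosome 9 (586 to 629 bp). In the drought-stressed list they were 583 bp (560 to 604 bp) and 568 bp (546 to 586 bp). Elsewhere the medians were 611 and 570 bp. Peaks under 250 bp, little more than a nucleosome with its linker DNA, made up 15.5% of the well-watered peaks on chromosome 8 and 16.2% on chromosome 9.

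Over the whole arms, broad regions were the more frequent on chromosome 8. Peaks of at least 1000 bp made up 91 of 815 well-watered peaks there (11.2%) and 93 of 1143 on chromosome 9 (8.14%), a difference of 3.03 percentage points (0.40 to 5.79). In the drought-stressed list the counts were 59 of 729 (8.09%) and 54 of 1033 (5.23%), a difference of 2.87 points (0.53 to 5.38). The outermost 11.5 Mb of chromosome 9, as long as the chromosome 8 arm, had shares nearer to those of chromosome 8. They were 84 of 941 (8.93%) in the well-watered and 50 of 849 (5.89%) in the drought-stressed list, and no interval was computed for that smaller difference. The share elsewhere, 9.54% and 6.02%, lay between the arms. Against it, the interval of the difference excluded 0 only for chromosome 8 in the drought-stressed list, at 2.07 points (0.28 to 4.30). The difference between the arms was 1 of 6 shares compared between them in each list, with no allowance for that number, and the intervals of the other 5 included 0 in both lists.

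Within the arms, broad regions were least frequent in the inner part. On chromosome 8 they made up 6.99%, 14.1% and 11.2% of the well-watered peaks from the inner to the outer part, and on chromosome 9 4.47%, 9.23% and 9.09%. The share of the inner part minus that of the outer was -4.18 points on chromosome 8 (-8.81 to 1.22) and -4.62 points on chromosome 9 (-7.90 to -0.66). Peaks under 250 bp had the larger share in the inner part on both arms. In the well-watered list the difference between inner and outer part was 7.60 points on chromosome 8 (0.94 to 14.8) and 3.66 points on chromosome 9 (-1.74 to 9.65). The drought-stressed list gave differences of 6.33 points (-0.29 to 13.7) and 6.57 points (0.91 to 12.9).

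The broadest region of either arm was on chromosome 9 from 13609115 to 13612605, 3491 bp wide in the well-watered list. Its drought-stressed counterpart, from 13609114 to 13612645, was 3532 bp wide, so this region had nearly the same extent in both lists. The widest well-watered peak of the chromosome 8 arm, from 25089708 to 25091655 and 1948 bp wide, met 2 drought-stressed peaks, the first of 605 bp. The widest drought-stressed peak of that arm, from 19138395 to 19140307, measured 1913 bp beside 1937 bp in the well-watered list.

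High-scored peaks made up a larger share of the peaks in the sparse inner parts than in the outer parts. Each peak carries a score from the authors on an unstated scale, which was used only to rank peaks within a list. In the inner part of the chromosome 8 arm, 37 of 186 well-watered peaks (19.9%, 14.8% to 26.2%) belonged to the highest score decile of the whole list, against 22 of 367 (5.99%, 3.99% to 8.91%) in the outer part. On chromosome 9 the counts were 36 of 246 (14.6%, 10.8% to 19.6%) and 35 of 572 (6.12%, 4.43% to 8.39%). The drought-stressed list gave 22.4% and 5.54% on chromosome 8, and 15.9% and 5.92% on chromosome 9. In all 4 cases the interval of the difference in share between inner and outer part lay above 0. By number, the equally long middle parts held 22 such well-watered peaks on chromosome 8 and 45 on chromosome 9. On chromosome 9 high-scored peaks were thus most numerous in the middle part.

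**Figure D3:**
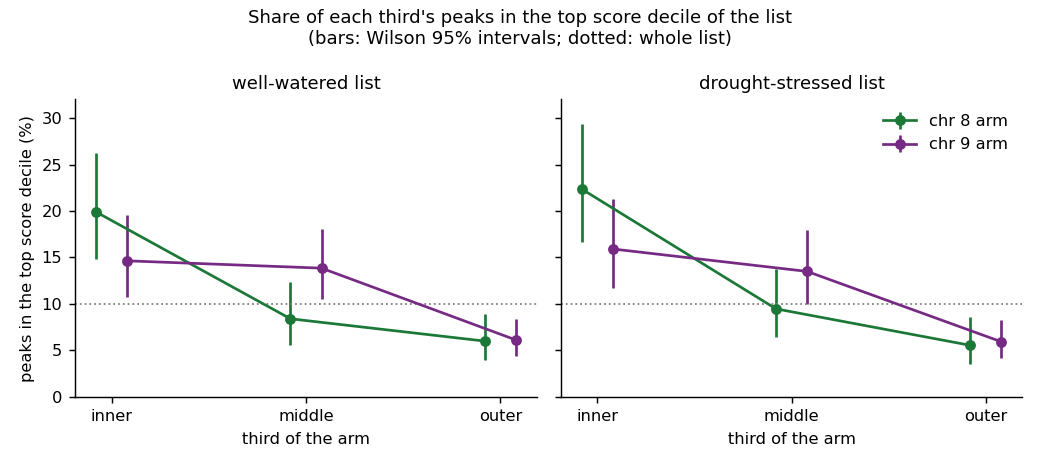
Share of peaks in the highest score decile of their list (vertical axis, %) in the inner, middle and outer part of each arm (horizontal axis), for the chromosome 8 arm (green) and the chromosome 9 arm (purple). Bars are Wilson 95% intervals and the dotted line is the share over the whole list; the outer parts lay between 5.54% and 6.12% in both lists.

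The larger share of high-scored peaks in sparse stretches was not particular to these arms. Elsewhere on chromosomes 1 to 12, in the 88 complete 1 Mb windows with the fewest well-watered peaks (19 to 54), 17.3% of well-watered peaks belonged to the highest decile (16.0% to 18.5%). In the 82 densest windows (103 to 144 peaks) 6.72% did (6.23% to 7.24%). In the middle part the shares were 8.40% on chromosome 8 and 13.8% on chromosome 9, where the middle part was also the sparser, at 60.6 against 68.3 well-watered peaks per Mb. Over the whole arms the shares were 9.94% and 10.1%.

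The highest-scored region of the arms was on chromosome 8 from 18013058 to 18013728, with a well-watered score of 33943, ranked 10 in the list. Its drought-stressed counterpart, from 18013068 to 18013532 with a score of 21437, was ranked 15 and was 465 bp wide beside 671 bp. The next on that arm, from 17916556 to 17917324 (769 bp, score 7338, ranked 70), lay inward of it. In the drought-stressed list it was overlapped in part by 2 separate peaks, 171 bp wide with a score of 380 and 196 bp wide with a score of 4314. The third, from 15266842 to 15267504 (score 4257), met a drought-stressed peak of 591 bp.

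On chromosome 9 the leading region was from 13455572 to 13456049, with a score of 11263 and a rank of 51. It was 478 bp wide, beside 488 bp in the drought-stressed list, where it also led the arm with a score of 7163. The next well-watered peaks were from 13490011 to 13490811 (score 6753) and from 8404913 to 8405741 (score 6370), and their counterparts stood in the opposite order in the drought-stressed list. The first and second of these regions and the broadest region of the arm all lay in the middle part of the arm. Of the 6 well-watered regions named here, 3 on each arm, 5 had a single drought-stressed counterpart.

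The share of regions found in one list only was alike on both arms and close to that of the whole lists. A peak that overlapped no peak of the other list by at least 1 bp is called condition-only. On the chromosome 8 arm 133 of 815 well-watered peaks were well-watered-only (16.3%, 13.9% to 19.0%), and on chromosome 9 178 of 1143 (15.6%, 13.6% to 17.8%), against 15.1% of all well-watered peaks. The arms differed by 0.75 percentage points (-2.51 to 4.09). Of the drought-stressed peaks, 36 of 729 on chromosome 8 (4.94%, 3.59% to 6.76%) and 53 of 1033 on chromosome 9 (5.13%, 3.94% to 6.65%) were drought-stressed-only, against 4.89% of all drought-stressed peaks. That difference was -0.19 points (-2.23 to 1.98). The 10 chromosomes without an arm ranged from 13.4% to 16.5% and from 4.49% to 5.43%. With equal numbers of peaks in both lists, taken by score, the arms held 73 and 80 well-watered-only and 55 and 86 drought-stressed-only peaks, so on chromosome 9 the order turned. With a reciprocal overlap of 50% the drought-stressed-only shares became 13.7% and 13.5%.

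**Figure D4:**
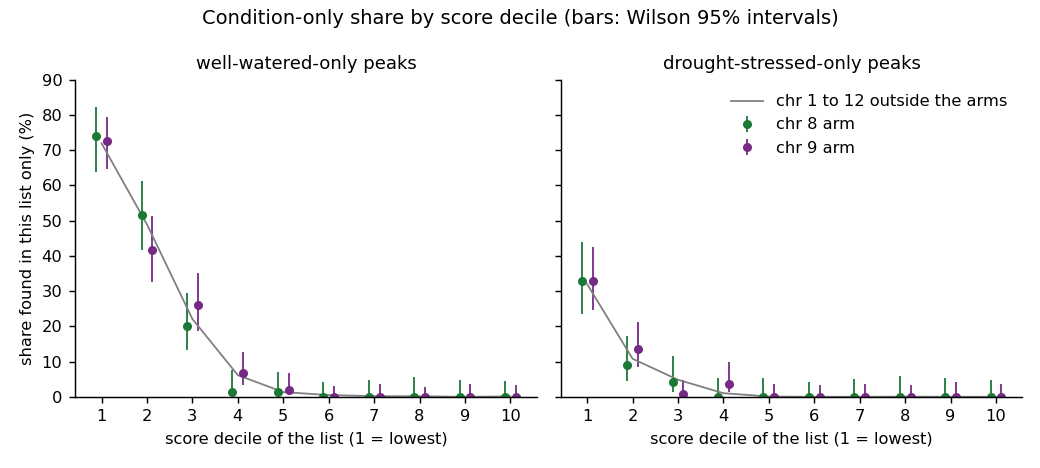
Share of peaks found in one list only (vertical axis, %) by score decile of that list (horizontal axis, 1 is the lowest), for the well-watered list (left) and the drought-stressed list (right), on the chromosome 8 arm (green), the chromosome 9 arm (purple) and the rest of chromosomes 1 to 12 (grey line). Bars are Wilson 95% intervals; both arms fell from 74.1% and 72.6% in the lowest well-watered decile to 0 of 90 and 0 of 126 peaks in the sixth.

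All condition-only peaks of these arms, in both lists, belonged to score deciles 1 to 5 of their list, and none to the upper deciles. In the lowest score decile 63 of 85 well-watered peaks were well-watered-only on chromosome 8 (74.1%) and 98 of 135 on chromosome 9 (72.6%), against 71.96% elsewhere. In the third decile the shares were 20.2%, 26.2% and 22.1%. With the shares found elsewhere in each decile, the arms would hold 134.6 and 180.0 well-watered-only peaks and 37.9 and 51.3 drought-stressed-only peaks, close to the observed 133, 178, 36 and 53.

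These peaks were short. Well-watered-only peaks had median widths of 206 bp on chromosome 8 and 207 bp on chromosome 9, against 684 and 661 bp for those with a counterpart. Drought-stressed-only peaks had medians of 205.5 and 191 bp. The median distance from a well-watered-only peak to the nearest drought-stressed peak was 4105 bp on chromosome 8 and 4116 bp on chromosome 9. For drought-stressed-only peaks the median distance to a well-watered peak was 1182.5 bp on chromosome 8 and 4547 bp on chromosome 9. Of these, 14 of 36 on chromosome 8 (38.9%) and 14 of 53 on chromosome 9 (26.4%) lay within 1 kb of one. Well-watered-only peaks ordered the arms the other way, with 26 of 133 (19.5%) and 45 of 178 (25.3%) within 1 kb of a drought-stressed peak. These distances and counts have no intervals and no values from elsewhere beside them.

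The share varied along the arms. From 15.9 to 16.9 Mb on chromosome 8, 12 of 40 well-watered peaks were well-watered-only (30.0%), and the shares elsewhere at the same scores would give 9.64. On chromosome 9 the highest 1 Mb window from the inner limit was 9.8 to 10.8 Mb, with 13 of 40 (32.5%) beside 7.34 at the shares elsewhere. From 6.8 to 7.8 Mb it was 11 of 39, beside 7.27. At the other end, 3 of 37 were well-watered-only from 10.8 to 11.8 Mb on chromosome 9 (8.11%) and 8 of 79 from 21.9 to 22.9 Mb on chromosome 8 (10.1%). The shares elsewhere at the same scores would give 5.41 and 14.8 in these windows. Windows of this size hold few such peaks, and these were picked for their extreme shares. From the inner to the outer part, the share was 19.4%, 13.4% and 16.9% on chromosome 8 and 19.1%, 14.5% and 14.7% on chromosome 9, and the interval of the difference between outer and inner part included 0 on both arms.

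The longest row of neighbouring well-watered peaks without a counterpart was 6, on chromosome 9 from 7594861 to 7789378. They were 151 to 671 bp wide with scores of 28 to 204, the widest from 7776307 to 7776977. A single drought-stressed peak lay among them, from 7626212 to 7626382, 171 bp wide with a score of 45. It overlapped none of them and was 31100 bp from the nearest. Over the 10 chromosomes without an arm, each taken whole and not by arm, the longest such row was 3 to 6 peaks. So 6 is the top of that range. On the chromosome 8 arm it was 3.

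The highest-scored well-watered-only peak of the chromosome 8 arm was also a broad one, from 25216749 to 25217990, 1242 bp wide with a score of 313, at a distance of 4886 bp from the closest drought-stressed peak. The next on that arm were from 20504583 to 20504735 (153 bp, score 241) and from 18383134 to 18383327 (194 bp, score 141). On chromosome 9 they were from 10688693 to 10688837 (145 bp, score 347), from 7422318 to 7422465 (148 bp, score 249) and from 13627405 to 13627547 (143 bp, score 217). The 3 on chromosome 9 were thus no wider than 148 bp, close to the shortest peaks of that list (139 bp), and lay 210 to 1362 bp from a drought-stressed peak.

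Among drought-stressed-only peaks, the first 3 on chromosome 8 were from 18292655 to 18292972 (318 bp, score 142), from 22508321 to 22508686 (366 bp, score 130) and from 25007520 to 25007996 (477 bp, score 93). Those on chromosome 9 were narrower: from 15432937 to 15433093 (157 bp, score 222), from 5746553 to 5746698 (146 bp, score 173) and from 19851100 to 19851287 (188 bp, score 150). The third on each arm lay farthest from a well-watered peak, at 12934 and 6419 bp.

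Regions found in both lists were narrower under drought on both arms, to the same extent as in the lists as a whole. A pair here is a well-watered and a drought-stressed peak that overlap each other and no other peak. On chromosome 8, 497 of 660 pairs were narrower in the drought-stressed list (75.3%, 71.9% to 78.4%), and on chromosome 9 694 of 934 (74.3%, 71.4% to 77.0%), against 75.1% of all pairs. The arms differed by 1.00 percentage point (-3.37 to 5.27). Wider pairs numbered 159 (24.1%) and 233 (24.9%), against 24.2% of all pairs. The 10 other chromosomes ranged from 72.9% to 77.04% narrower pairs.

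The median width change was -54 bp on chromosome 8 (-64 to -45 bp), with medians of 681 bp in the well-watered and 604 bp in the drought-stressed list. On chromosome 9 it was -48 bp (-55 to -42 bp), with 661.5 and 587.5 bp. The interquartile range of the changes ran from -123.25 to -1 bp on chromosome 8 and from -114.75 to 0 bp on chromosome 9. Both ends contributed, with median inward shifts of 25 bp at the left and 21 bp at the right end on chromosome 8, and 19 bp at each end on chromosome 9. Both ends moved inward in 49.5% and 46.4% of pairs, against 47.4% elsewhere. Both moved outward in 8.33% and 10.2%, against 8.84% elsewhere.

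The narrowing showed no gradient like that of density. From the inner to the outer part, the share of narrower pairs was 76.0%, 74.5% and 75.5% on chromosome 8 and 73.4%, 74.8% and 74.4% on chromosome 9. The median change was -51.5, -49.5 and -57 bp, and -45.5, -42.5 and -54 bp. The differences in the share between outer and inner part were -0.52 points (-8.61 to 8.27) and 0.93 points (-6.14 to 8.56). In each of the 11 and 16 complete 1 Mb windows most pairs were narrower, from 67.7% to 87.9% on chromosome 8 and from 65.96% to 85.2% on chromosome 9. At the shares found elsewhere for pairs of like mean width, 500.6 and 700.9 pairs would be narrower, beside the 497 and 694 observed.

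**Figure D5:**
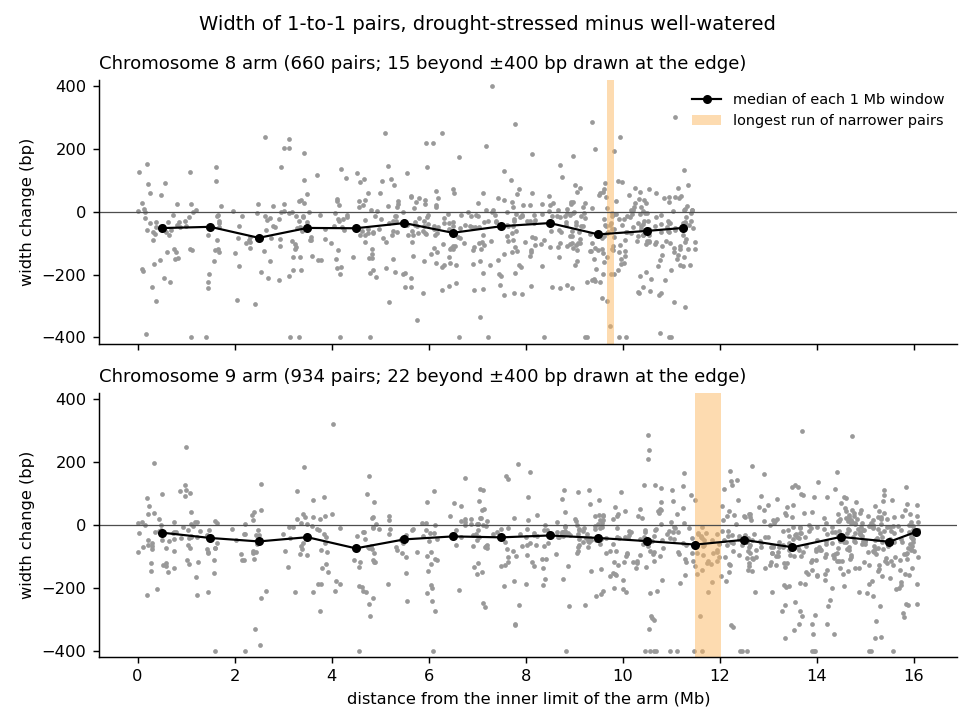
Change in width of each pair in bp, drought-stressed minus well-watered (vertical axis), against the distance of the well-watered peak from the inner limit of its arm in Mb (horizontal axis). Grey points are pairs, black points are medians of 1 Mb windows and the shaded band is the longest unbroken run of narrower pairs, 15 pairs on chromosome 8 and 33 on chromosome 9. The window medians stayed below 0 along both arms.

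In one stretch of chromosome 9 every pair was narrower. From 16294581 to 16835496, over 541 kb, the 33 pairs in a row had changes of -857 to -7 bp with a median of -86 bp, a median change of -11.1% of the well-watered width. The other pairs of the arm had a median change of -45 bp, and 73.4% of them were narrower. The pairs of the stretch were broader than those, with a median well-watered width of 744 against 659 bp. Their median well-watered score was 661 against 525, and their median drought-stressed score 403 against 404. The stretch also held 12 well-watered-only peaks among 47 well-watered peaks (25.5%, against 15.1% of the whole list) and 4 drought-stressed-only peaks among 41. In the 0.5 Mb window from 16.3 to 16.8 Mb, which holds most of the stretch, 12 of 45 well-watered peaks were well-watered-only, and the shares elsewhere at the same scores would give 10.3, so the count was close to that of peaks with like scores. It was picked for its narrower pairs, so no interval is given. On the 10 chromosomes without an arm, each taken whole and not by arm, the longest run was 21 to 36 pairs, median 23. The longest of these, on chromosome 10, exceeded the 33 pairs found here. On the chromosome 8 arm the longest run was 15 pairs, from 24580045 to 24713185, where the median change was -108 bp.

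Runs of wider pairs were short. The longest held 4 pairs on each arm, on chromosome 8 from 17856798 to 17920840 (median change 82.5 bp), and on chromosome 9 from 5781871 to 5794095 (median change 117.5 bp). On the other chromosomes, each taken whole and not by arm, the longest held 4 to 18.

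Large changes were as frequent as in the lists as a whole. Pairs that lost at least one part in 3 of their well-watered width numbered 59 on chromosome 8 (8.94%) and 86 on chromosome 9 (9.21%), against 8.96% of all pairs. The largest losses of the chromosome 8 arm were at 18220062 to 18221278, with 1217 bp in the well-watered and 147 bp in the drought-stressed list, and at 24168147 to 24169277, with 1131 and 244 bp. The chromosome 9 arm had its largest at 16431055 to 16432076, with 1022 and 165 bp, inside the stretch of 33 narrower pairs, and at 15254279 to 15255386, with 1108 and 367 bp. Well-watered scores at these regions were 101 to 297, below the list's median of 388.

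Gains were smaller. Pairs that gained at least 50% of their well-watered width numbered 17 on chromosome 8 (2.58%) and 16 on chromosome 9 (1.71%), against 1.72% of all pairs. The largest gain on chromosome 8 was from 22211188 to 22211368, with 181 and 683 bp, and the next was from 25974359 to 25974896, with 538 and 839 bp. On chromosome 9 they were from 8831236 to 8831546, with 311 and 633 bp, and from 18500370 to 18501272, with 903 and 1200 bp.

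Divided regions were as frequent on both arms. Well-watered peaks over 2 or more drought-stressed peaks numbered 15 on chromosome 8 (1.84%) and 21 on chromosome 9 (1.84%), against 1.72% of all well-watered peaks, and none met more than 2. They had median widths of 907 and 1159 bp. The first along each arm were at 17157247 to 17158551 on chromosome 8, where 1305 bp in the well-watered list overlapped drought-stressed peaks of 188 and 686 bp, and at 5153740 to 5154260 on chromosome 9, where 521 bp overlapped peaks of 160 and 396 bp. Drought-stressed peaks over 2 or more well-watered peaks numbered 4 (0.549%) and 6 (0.581%), against 0.597% of all drought-stressed peaks.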

How the data were processed

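The authors deposited 1 peak list per condition, without a header line. A row holds a chromosome, a start and an end in bp, a score and a name for the peak. The score was used as deposited by the authors, and its scale and making were not given in the sources used here. BWA, MACS2, SAMtools and deepTools appear in the submitters' processing notes, without versions or roles. Genome build, calling threshold, input control and the way replicates were combined were likewise not stated. A table of rice genes of another assembly was not used.

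Overlaps, pairs and intervals were computed with Python 3.11.15, numpy 2.4.6, pandas 2.3.3 and scipy 1.17.1, and counts of condition-only peaks were checked with bedtools 2.31.1. Shares have Wilson intervals, differences of shares Newcombe intervals, densities exact Poisson intervals, density ratios exact binomial intervals and medians order-statistic intervals. A pair was counted on an arm when both midpoints lay there. The code was tested on an altered copy of the well-watered list with planted losses and width changes. The interval of the median was checked on simulated numbers. Score deciles are ranks within a list. Chromosomes were measured up to their last peak.

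The arms, the measures and the rule for named regions were chosen with earlier results of these data known. The rule took, per arm, in each list the 3 peaks and the 3 condition-only peaks with the highest scores, the largest losses and gains of width, the widest and most divided peaks, the longest gaps, and the fullest and emptiest 0.5 Mb windows. The runs of narrower, wider and condition-only peaks and the 1 Mb windows with extreme shares were picked after their values were seen.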

Additional observations from a re-analysis of the deposited data

How the results depend on the processing

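Of 94 alternative values, 55 stayed within the interval of the reported value and 39 left it. Only the median width changes can change sign, since the other values cannot be negative, and none of them did. With a reciprocal overlap of 50% the well-watered-only shares became 22.8% (chromosome 8) and 21.8% (chromosome 9), and the drought-stressed-only shares 13.7% and 13.5%. With gaps of up to 1 kb tolerated they became 13.1%, 11.6%, 3.02% and 3.78%, in the same order. With as many well-watered as drought-stressed peaks they were 9.93%, 7.92%, 7.54% and 8.33%. On chromosome 9 the well-watered-only peaks, 80, were then fewer than the drought-stressed-only peaks, 86, so the excess of well-watered-only peaks did not hold there with lists of equal length.

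With peaks above the median score of both lists the well-watered-only shares were 10.5% and 11.6%, and the drought-stressed-only share of chromosome 9 was 2.30%. Against the whole other list, 0 of 391 and 0 of 576 well-watered and 0 of 366 and 0 of 521 drought-stressed peaks were condition-only (0%). By construction the same cut lowered densities, to 34.0 and 35.8 well-watered and 31.8 and 32.4 drought-stressed peaks per Mb, and raised median gaps, to 15788.5 and 14224 bp and to 16965 and 15017.5 bp. Median widths rose to 758 and 730 bp and to 678.5 and 661 bp, and narrower pairs to 80.5% and 77.4%.

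Moving the limits changed only densities by more than their intervals. Chromosome 8 rose to 77.02 and 69.9 peaks per Mb (well-watered, drought-stressed) when extended to its last peak, and to 76.0 and 68.6 with the inner limit 2 Mb outward. The outermost 11.5 Mb of chromosome 9 had 81.8 and 73.8. Leaving out chromosome 9 from 7 to 8 Mb, an alternative added after the data were seen, kept its 4 values within their intervals, with 14.7% well-watered-only peaks.

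No paired analysis was possible because the replicates share a list, which also means that neither replicate was left out in turn. Depth is unknown, and its part in any of these values was not tested.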
